A study of Mus musculus with 12 samples.

Results

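*Gmnc*, *Mcidas*, *Ccno*, *Cdc20b*, *Foxj1*, *Otx2*, *Lmx1a*, *Msx1*, *Clic6* and *Ttr* are 10 genes, chosen as a list by name out of 23513 genes counted, that mark the cortical hem, the choroid plexus or cells that build many cilia. They were followed by single nucleus RNA sequencing (snRNAseq) in 25 clusters of nuclei from the cortices of 11 mouse embryos. Pregnant C57BL/6J mice were injected i.p. once daily with saline or with 2.5 g/kg EtOH, 6 injections in all with the last on the day before collection, and cortices were taken at embryonic day 14. The saline group was 5 embryos, S1-1 and S1-2 from dam S1 in batch 1 and S2-1, S2-2 and S2-4 from dam S2 in batch 2. The EtOH group was 6 embryos, E1-1 and E1-2 from dam E1 in batch 1 and E2-1 to E2-4 from dam E2 in batch 2. With 2 dams per treatment, littermates stand in for independent embryos, and a further saline embryo in the labels, S2-3, was not used here. The authors removed low-transcript, thalamic and non-neuronal clusters before deposit, so such cells enter only as far as they were left in the 25 clusters.

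The cortical hem is a signalling strip at the medial edge of the cortex that secretes Wnt and Bmp proteins, and it lies beside the epithelium that becomes the choroid plexus, the tissue that makes cerebrospinal fluid. The hem is also a source of Cajal-Retzius cells, the Reelin-secreting neurons of Layer I. Choroid plexus epithelium is multiciliated: Geminin-family coiled-coil proteins act with E2F factors to switch on the genes that multiply centrioles and build cilia.

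Saline embryos held 44017566 to 83061737 UMIs (unique molecular identifiers, each standing for 1 counted RNA molecule) and EtOH embryos 14078316 to 38034349. The median nucleus had 6325 to 9051 UMIs in saline and 4071.5 to 6911 in EtOH embryos. Levels below are CPM, the UMIs of a gene per 1000000 UMIs of an embryo in a cluster, given as mean ± SD over the embryos with at least 10 nuclei there. Of 50550 nuclei, 627 were in Cluster 21, the radial glial cells (RGCs) named cortical hem by the authors, and 1289 in Cluster 14, the Layer I Cajal-Retzius cells. Cluster 21 took 0.748% to 1.247% of the nuclei in 4 saline embryos but 4.64% (206 nuclei) in S2-2. Among EtOH embryos it took 0.487% to 1.55% in 5 and 0.0789% in E2-1, whose 3 nuclei were too few to enter the values of Cluster 21.

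The hem and choroid genes were highest in Cluster 21 and, apart from *Otx2*, low in the other clusters. *Lmx1a*, a LIM homeodomain factor of the roof plate and hem, reached 1052 ± 206 CPM in Cluster 21 (n = 10), with 79.5 ± 38.7 CPM in Cluster 14 (n = 11), the next highest. *Msx1*, a homeobox gene that responds to Bmp signals, reached 32.6 ± 12.3 CPM in Cluster 21 and no more than 0.641 ± 0.448 CPM in any other cluster. *Clic6*, a chloride intracellular channel family gene abundant in choroid plexus epithelium, was at 198.5 ± 90.03 CPM in Cluster 21 against 9.11 ± 8.40 CPM in Cluster 14. Since clusters were built from these counts, the levels are a description and were not tested between clusters.

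*Ttr*, the gene of transthyretin, the thyroid hormone carrier that choroid plexus epithelium secretes, was at 734 ± 373 CPM in Cluster 21 and between 5.003 and 15.3 CPM on average in the other 24 clusters. A *Ttr* UMI was found in 36.6% of Cluster 21 nuclei (95% Clopper-Pearson interval 32.8% to 40.5%, counting error only) after thinning each nucleus to 2000 UMIs. Callosal projection neurons of Cluster 1, which should lack the gene, gave 2.51% (2.06% to 3.02%), and their median depth was 6607.5 UMIs against 7702 in Cluster 21. Without thinning, the shares were 46.9% and 7.56%. Outside Clusters 3, 14, 20 and 21 the thinned share lay between 0.806% and 3.95%, so the 3.34% in Cluster 14, the 2.66% in Cluster 3 and the 1.84% in Cluster 20 were within the background. Of all *Ttr* UMIs, 50.4% were in Cluster 21 and 43.2% in the clusters other than 3, 14, 20 and 21. Over all clusters, 3477 of the 4286 nuclei with *Ttr* held 1 UMI.

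**Figure D1:**
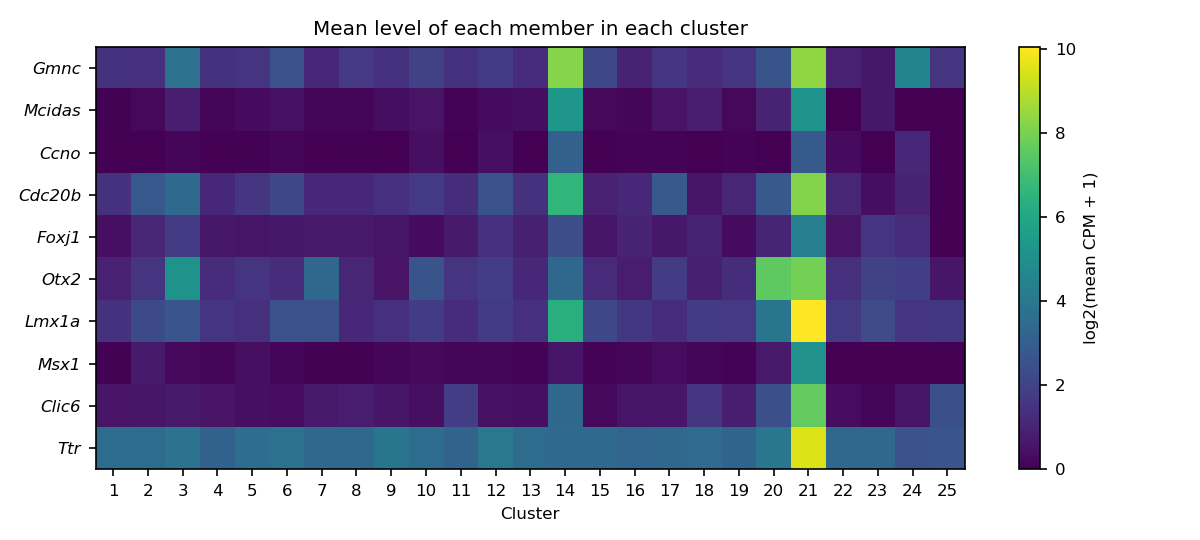
Heat map of the mean level of each of the 10 genes (rows) in each of the 25 clusters (columns), coloured by log2(mean CPM + 1) over the embryos with at least 10 nuclei in the cluster. Cluster 21 has the highest level of every gene but Mcidas and Ccno, Cluster 14 is also bright for Gmnc, Mcidas, Cdc20b and Lmx1a, Cluster 20 for Otx2, and the Ttr row has a low, even level in all other clusters.

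*Otx2*, a homeobox gene of the anterior brain that is also needed in choroid plexus, had the widest distribution of the hem and choroid genes. Its level was 244 ± 42.6 CPM in Cluster 21, 188 ± 52.6 CPM in Cluster 20 (RGC 2, n = 9), 34.3 ± 12.5 CPM in Cluster 3 (interneuron precursors, n = 11) and 9.39 ± 5.93 CPM in Cluster 14. The spreads of Clusters 21 and 20 overlapped, and those of Clusters 20 and 3 did not. Its detection after thinning was likewise near equal in Cluster 21 (35.8%, 32.0% to 39.7%) and Cluster 20 (33.8%, 30.2% to 37.6%). Cluster 20 differed from Cluster 21 in the rest of the list, with *Lmx1a* at 13.8 ± 9.09 CPM and *Ttr* at 14.4 ± 14.4 CPM. It had the highest mean of any cluster for *Tcf7l2* (1057 CPM), a gene of the diencephalon among other places, and of 18 diencephalon and midbrain genes 7 had their highest mean there. Apart from *Tcf7l2*, these had means of 2.31 (*Pou4f1*) to 7.26 CPM (*Dbx1*), *Irx1* and *Irx2* included, and *Barhl2*, highest in Cluster 19, had 17.9 CPM in Cluster 20. *Otx2* overlaps the noncoding *Otx2os1* on the other strand and the strand used for counting is not stated in the sources used here, so their UMIs may not be fully separated.

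The multiciliation genes had 2 sites, Cluster 14 and Cluster 21. *Gmnc*, the Geminin-family protein at the top of the multiciliation cascade, reached 334 ± 337 CPM in Cluster 21 and 295 ± 235 CPM in Cluster 14, which did not differ beyond their spread, followed by 22.2 ± 22.7 CPM in Cluster 24. These spreads cover both treatments, and clusters were not paired by embryo. In Clusters 21 and 14 the *Gmnc* means were 554 and 414 CPM in saline and 113 and 195 CPM in EtOH. *Mcidas* (multicilin, a second Geminin relative acting with E2F factors) had 38.7 ± 26.9 CPM in Cluster 14 and 34.3 ± 31.4 CPM in Cluster 21, and *Ccno* (cyclin O, used in mass production of centrioles) at 7.44 ± 5.34 and 6.10 ± 5.69 CPM. The order of the clusters for these genes was within the embryo spread. *Cdc20b*, a *Cdc20* relative that takes part in centriole release from the deuterosome, had 290 ± 238 CPM in Cluster 21, against 97.6 ± 83.4 CPM in Cluster 14, with overlapping spreads. *Foxj1*, the forkhead factor of motile cilia, was sparse, with 537 UMIs in all, and reached 18.9 ± 14.6 CPM in Cluster 21 against 4.14 ± 3.01 CPM in Cluster 14.

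As Cluster 14 is larger, it held more of the multiciliation UMIs: 57.0% of the 8639 *Gmnc* UMIs, 60.2% of the 980 *Mcidas* UMIs and 60.2% of the 171 *Ccno* UMIs, against 28.4%, 29.4% and 27.5% in Cluster 21. For *Cdc20b* the shares were 30.5% in Cluster 14 and 47.1% in Cluster 21 of 5333 UMIs. *Foxj1* was different, since 49.5% of its UMIs lay outside Clusters 3, 14, 20 and 21, and 387 of the 445 nuclei with it held 1 UMI. In Cluster 24, where *Gmnc* was next highest after Clusters 21 and 14, *Mcidas* was found in 0 of 273 thinned nuclei, which allows a share of up to 1.1% and limits nuclei with a UMI at that depth, not nuclei expressing the gene.

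*Ccno*, *Mcidas* and *Cdc20b* are neighbours on the plus strand of chromosome 13 in GRCm38 (mm10), within the 103.394 kb from 112987802 to 113091195. *Mcidas* starts 3067 bases after the end of *Ccno*, and *Cdc20b* starts 34.716 kb after the end of *Mcidas*. An intron of *Cdc20b* holds *Mir449c*, *Mir449b* and *Mir449a*, miRNA genes whose mature products are known from multiciliated cells. The 2 mature forms listed by RefSeq are shown because they carry a common seed, bases 2 to 8 in capitals, which mmu-miR-34a-5p and mmu-miR-34b-5p also have. Mature miRNAs were not measured by this assay.
mmu-miR-449a-5p: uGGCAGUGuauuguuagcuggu
mmu-miR-449c-5p: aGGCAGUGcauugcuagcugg

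Of the other genes, *Gmnc* lies at chr16:26913553-26991652 (minus strand), *Foxj1* at chr11:116330704-116335399 (minus), *Otx2* at chr14:48657677-48673819 (minus), *Lmx1a* at chr1:167689237-167848741 (plus), *Msx1* at chr5:37820485-37824583 (minus) and *Clic6* at chr16:92485736-92541243 (plus). *Cdc20b* overlaps *Gpx8*, *Gm10735* and *4930563N14Rik* on the other strand, and *Clic6* overlaps *2410124H12Rik* on its own.

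The promoter windows of *Ccno* (chr13:112987552-112987851, plus strand) and *Mcidas* (chr13:112993618-112993917, plus strand) are shown as RefSeq gives them on GRCm38.p6, from 250 bases before to 50 bases after the start, because both genes had the same 2 sites of expression. Capitals mark GTTGCC, the half-site of RFX factors, searched on both strands as GTTGCC and GGCAAC.
Ccno: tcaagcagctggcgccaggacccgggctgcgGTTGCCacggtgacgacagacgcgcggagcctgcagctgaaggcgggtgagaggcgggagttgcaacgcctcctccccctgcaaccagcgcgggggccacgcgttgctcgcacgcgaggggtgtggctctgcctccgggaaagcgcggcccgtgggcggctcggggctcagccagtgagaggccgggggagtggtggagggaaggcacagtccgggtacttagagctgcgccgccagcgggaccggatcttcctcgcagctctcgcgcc
Mcidas: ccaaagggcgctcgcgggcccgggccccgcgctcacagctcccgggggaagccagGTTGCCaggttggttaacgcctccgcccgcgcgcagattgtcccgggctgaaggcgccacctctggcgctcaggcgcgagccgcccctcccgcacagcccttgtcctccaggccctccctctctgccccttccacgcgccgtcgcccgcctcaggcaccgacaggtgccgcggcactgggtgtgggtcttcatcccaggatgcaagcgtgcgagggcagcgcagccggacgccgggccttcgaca
The half-site lies 219 bases before the start of *Ccno* and 195 bases before that of *Mcidas*. It was found in 12.5% of all 32851 promoters of 300 bases, and in 4 of the 11 promoters in the table of 7 genes of the list. These 4 belong to 3 genes, *Otx2* being the other one, with 2 sites, 1 lying at -41 from its first listed start, which is also -177 from its second, and 1 at -44 from its second. The windows of *Gmnc*, *Cdc20b*, *Lmx1a* and *Msx1* do not hold these letters. *Rfx3* and *Rfx2*, factors that bind such sites and are needed for cilia, were both highest in Cluster 21, at 1286 ± 209 and 87.8 ± 16.5 CPM. In Cluster 14 they were at 525 and 15.5 CPM, beside 586 and 4.14 CPM in the median cluster.

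Within Cluster 14, *Gmnc* was concentrated in few nuclei. A threshold of 10 UMIs, chosen after the values were seen, separated 135 nuclei (10.5% of the cluster) that held 89.8% of its *Gmnc* UMIs there, with 19 nuclei at 7 to 9 and 31 nuclei at 10 to 12 UMIs on either side of it. *Mcidas* was found in 65.9% of these nuclei against 1.21% of the 993 without *Gmnc*, *Cdc20b* in 59.3% against 3.22%, and *Ccno* in 32.6% against 0.101%. Depth did not run with this order, the median nucleus having 8053 UMIs in the first group and 9832 in the second.

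The *Gmnc*-high nuclei of Cluster 14 had Cajal-Retzius markers and hem genes. *Reln*, the Reelin gene, was at 4576 CPM in them and at 10102 CPM in the nuclei without *Gmnc*, and *Trp73*, the p73 factor of Cajal-Retzius and multiciliated cells, was at 1252 against 408 CPM. *Rspo2*, a hem gene that enhances Wnt signals, was at 798 against 46.9 CPM, and *Lmx1a* was at 320 against 36.2 CPM. Of the choroid genes, *Otx2* (34.1% against 2.82% of nuclei) and *Clic6* (21.5% against 0.906%) followed this split. *Ttr* was found in 14.8% against 9.97%, and *Htr2c*, a serotonin receptor gene very abundant in choroid plexus, in 10.4% against 10.5% of nuclei. Nuclei were grouped here by the same counts, so these are descriptions of pooled nuclei in unthinned counts and were not tested.

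Detection of the multiciliation genes, first in unthinned counts, was nested. In Cluster 14, 90.8% of the 131 nuclei with *Mcidas* also had *Gmnc* and 75.6% had *Cdc20b*, against 15.3% and 4.58% of nuclei without *Mcidas*. In Cluster 21, 80.4% of the 51 nuclei with *Mcidas* had *Gmnc* and 90.2% had *Cdc20b*, against 21.7% and 9.03%. Of the nuclei with *Ccno*, 94.4% of 54 in Cluster 14 and 96.4% of 28 in Cluster 21 had *Cdc20b*. After thinning to 2000 UMIs, *Gmnc* was still found in 89.5% of 76 *Mcidas* nuclei in Cluster 14 and in 65.6% of 32 in Cluster 21.

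**Figure D2:**
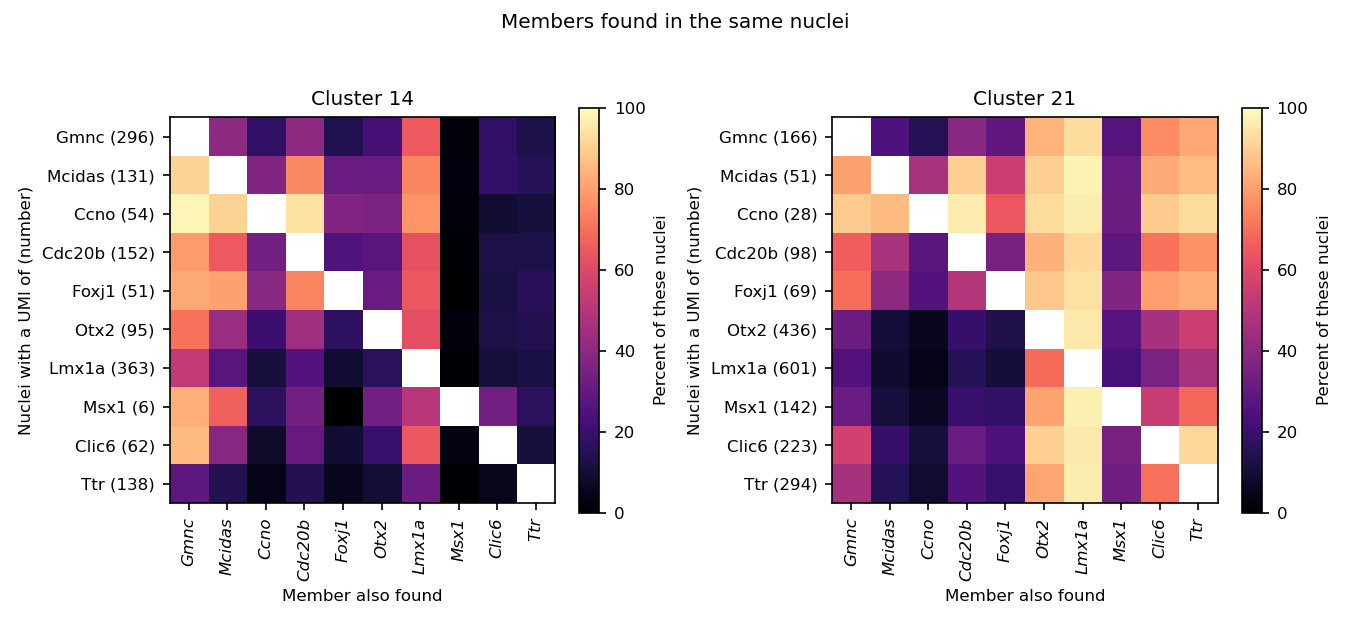
Heat maps for Clusters 14 and 21 of the percent of nuclei with a UMI of the row gene (number in brackets) that also had a UMI of the column gene, unthinned and over all embryos. Rows for Mcidas and Ccno are bright under Gmnc and Cdc20b in both clusters, while the columns for Clic6 and Ttr are dark in Cluster 14 and bright in the Gmnc, Mcidas, Ccno, Cdc20b and Foxj1 rows of Cluster 21.

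The nuclei of Cluster 21 ranged from hem-marked to choroid-marked by these genes. In unthinned counts, *Ttr* was absent from 333 nuclei, at 1 to 9 UMIs in 136 and at 10 or more in 158, and the last group held 91.2% of its UMIs in the cluster. *Clic6* was found in 94.9% of the *Ttr*-high nuclei and 5.11% of those without *Ttr*, and *Otx2* in 93.7% against 58.9%. *Htr2c* was at 7376 against 59.7 CPM, *Folr1*, a folate receptor of choroid plexus, at 109 against 23.04 CPM, and *Kcnj13*, a potassium channel gene of that epithelium, at 105 against 6.81 CPM.

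Of the hem genes compared between the same nuclei, the Wnt and R-spondin genes ran the other way and *Msx1* did not. *Wnt8b*, a Wnt ligand of the hem, was at 61.2 CPM in the *Ttr*-high nuclei and 446 CPM in those without *Ttr*, *Wnt3a* at 17.9 against 235 CPM and *Rspo2* at 1668 against 4771 CPM. *Msx1* was at 52.02 CPM in the *Ttr*-high nuclei (found in 39.9%) and 17.2 CPM in those without *Ttr* (13.5%). *Lmx1a* was at 838 CPM and 991 CPM and thus present at both ends of this range. The authors' name for Cluster 21 therefore covers nuclei with hem markers and nuclei with choroid plexus markers, with 23 nuclei at 7 to 9 and 23 at 10 to 12 *Ttr* UMIs near the threshold, which was chosen after the values were seen. Among all nuclei of the cluster, *Kl* (1.77 CPM), *Aqp1* (4.85 CPM) and *Sostdc1* (8.04 CPM), choroid plexus genes too, were low.

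The multiciliation genes of Cluster 21 were higher in its *Ttr*-high nuclei, again in unthinned counts. *Gmnc* was at 931 CPM in *Ttr*-high nuclei and 150 CPM in nuclei without *Ttr*, *Mcidas* at 123 against 5.84 CPM and *Cdc20b* at 1062 against 34.4 CPM. The 44 nuclei with 10 or more *Cdc20b* UMIs held 95.5% of its UMIs in the cluster. Of these nuclei, 95.5% had *Mcidas*, 84.1% *Gmnc*, 59.1% *Foxj1*, 95.5% *Ttr* and 95.5% *Deup1*, the deuterosome scaffold gene, which was at 816 CPM in them and 10.4 CPM in nuclei without *Cdc20b*. In Cluster 14 the 58 *Cdc20b*-high nuclei had *Mcidas* in 94.8% and *Gmnc* in 100% but *Deup1* in 41.4% (101 CPM), *Foxj1* in 41.4% and *Ttr* in 13.8%. Doublets were not called, and the median depth of the *Cdc20b*-high nuclei was 9265 UMIs in Cluster 21 and 7777 in Cluster 14, against 7410 and 9809 in nuclei without the gene.

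Other genes of the same programmes were counted from lists. Of 18 motile cilia genes found, 17 had their highest mean in Cluster 21, led by *Dnah9* (221 ± 89.1 CPM), an axonemal dynein, *Spef2* (197 ± 97.5), *Cfap44* (174 ± 76.6) and *Ccdc39* (139 ± 53.2). Of 22 hem genes, 16 were highest there, led by *Rspo2* (4059 ± 729 CPM), *Sulf1* (2082 ± 447), *Rspo3* (1896 ± 331) and *Rspo1* (335 ± 70.5). Of 22 choroid plexus genes, 16 were highest there, among them *Trpm3* (6537 ± 2376 CPM), *Htr2c* (2127 ± 1830) and *Igfbp2* (115 ± 37.5). The second highest cluster had 2689 CPM of *Trpm3* and 150 CPM of *Htr2c*, and *Igfbp2* was nearly as high in Cluster 20 (108 CPM). *Otx2os1* was at 883 ± 224 CPM in Cluster 21 and had its highest mean in Cluster 20 (1274 CPM). Of 18 multiciliation partners, 6 were highest in Cluster 21, *Rfx3* and *Rfx2* among them. *Pcm1*, of the centriolar satellites, was at 441 ± 41.5 CPM in Cluster 21 against 488 CPM in Cluster 2, and *Cep152*, of centriole duplication, at 88.4 ± 47.2 against 92.8 CPM, so that both had their highest mean in Cluster 2. Of 14 Cajal-Retzius genes 0 were highest in Cluster 21 and 8 in Cluster 14. How many of all genes had their highest mean in Cluster 21 was not counted, so these list counts have no general share beside them.

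The genes most alike in their level over the 25 clusters (Pearson's r of log2(mean CPM + 1), 13646 genes compared, all sharing the same libraries and depth) were often each other. *Gmnc* was most like *Ccno* (r = 0.95), *Fam47e* (0.91) and *Mcidas* (0.90). *Mcidas* was most like *Gm48215* (0.98), *Dynlrb2* (0.95) and *Lmx1a* (0.92), *Ccno* like *Gmnc*, *Mcidas* (0.92) and *Gm48215* (0.91), and *Cdc20b* like *5930412G12Rik* (0.92), *Cenpw* (0.92) and *Cfap52* (0.91). *Foxj1* was most like *4833427G06Rik*, *Ak9* and *Dynlrb2* (each 0.89).

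Of the hem and choroid genes, *Lmx1a* was most like *Rspo2* (0.97), *Dynlrb2* (0.97) and *Ttc21a* (0.96), and *Clic6* like *Dydc1*, *Rspo2* and *Nr1h4* (each 0.94). *Msx1* was most like *Olfr370*, *Slco1a4* and *Spata18* (each 0.98), and *Ttr* like *Slco1a4* (0.97), *Msx1* (0.97) and *2900040C04Rik* (0.96). *Otx2* was most like *Otx2os1* (0.97), *Txlnb* (0.95) and *Dnah7b* (0.93). The lowest likeness within the list was between *Ccno* and *Otx2* (0.50).

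To ask whether prenatal EtOH changed these genes, EtOH and saline embryos were compared, first over all nuclei of an embryo. All 10 genes were lower in EtOH, with a median log2 fold change of -1.20 against 0.01 over all 18138 genes tested, but 1 of 10 was called (edgeR's quasi-likelihood test, adjusted p under 0.05 and log2 fold change above 0.32 or below -0.32, the study's fold limits). At that rule 12.1% of all genes were called in either direction and 3.55% were called lower. In such sums fewer nuclei of a type and less RNA per nucleus cannot be told apart.

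*Gmnc* was the gene called. Its level over all nuclei was 12.6, 21.8, 18.4, 81.4 and 14.97 CPM in saline embryos S1-1, S1-2, S2-1, S2-2 and S2-4. In EtOH embryos the lowest was 2.23 CPM (E2-1), the median 6.89 CPM and the highest 15.6 CPM (E1-1). S2-2 stood far above all others, and E1-1 overlapped with the saline embryos S1-1 and S2-4. The log2 fold change was -2.02 (SE 0.58, n = 5 and 6, edgeR's quasi-likelihood test, adjusted p = 0.0340), and a two-sided exact permutation test over 462 splits gave p = 0.0130, or 0.00952 over the 210 splits within batches. By batch the means were 17.2 CPM in saline and 13.6 CPM in EtOH in batch 1, and 38.2 and 5.06 CPM in batch 2.

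This call was lost in 9 of the 11 fits that left out an embryo. Without S2-2 the log2 fold change was -1.26 (edgeR, adjusted p = 0.0714), and leaving out S1-1, S1-2, S2-1, E1-2, E2-1, E2-2, E2-3 or E2-4 gave adjusted p between 0.0531 and 0.0702, while leaving out S2-4 or E1-1 kept the call. With counts summed per dam it was -1.66 (edgeR, adjusted p = 0.292), with a random dam effect in limma -2.01 (adjusted p = 0.0519), and with a replicate block -1.95 (edgeR, adjusted p = 0.0962). Without the nuclei of Cluster 21 it was -1.80 (SE 0.67, adjusted p = 0.0725), and without those of Clusters 14, 20 and 21 it was -2.59 (SE 0.72, adjusted p = 0.0312). In that last sum S2-2 was at 15.5 CPM, the other saline embryos at 1.13 to 3.54 CPM and the EtOH embryos at 0.571 to 1.87 CPM, so the saline mean of 4.82 CPM was 2.15 CPM without S2-2.

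The other 9 genes were not called over all nuclei. *Cdc20b* had a log2 fold change of -1.54 (SE 0.64), *Mcidas* -1.37 (SE 0.69) and *Ccno* -1.07 (SE 0.80), with adjusted p of 0.104, 0.168 and 0.346 (edgeR). *Clic6* had -1.33 (SE 0.57, adjusted p = 0.108), *Ttr* -1.21 (SE 0.65, 0.193), *Msx1* -1.19 (SE 0.54, 0.127), *Otx2* -0.92 (SE 0.32, 0.0640), *Lmx1a* -0.51 (SE 0.56, 0.529) and *Foxj1* -0.46 (SE 0.32, 0.305), all by edgeR. Including *Gmnc*, 5 of the 10 had an unadjusted p under 0.05 (edgeR), as had 6912 of all 18138 genes in this fit. The differences of the 9 genes were smaller without S2-2. Leaving it out, the log2 fold change was -0.45 for *Cdc20b*, -0.46 for *Mcidas*, -0.25 for *Ccno* and -0.091 for *Foxj1*, and -0.70 for *Clic6*, -0.58 for *Ttr*, -0.67 for *Msx1* and -0.76 for *Otx2*, with adjusted p (edgeR) from 0.131 to 0.808. For *Lmx1a* the direction itself rested on S2-2 (61.5 CPM, the other saline embryos 10.7 to 18.3), since without it the log2 fold change was 0.20.

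**Figure D3:**
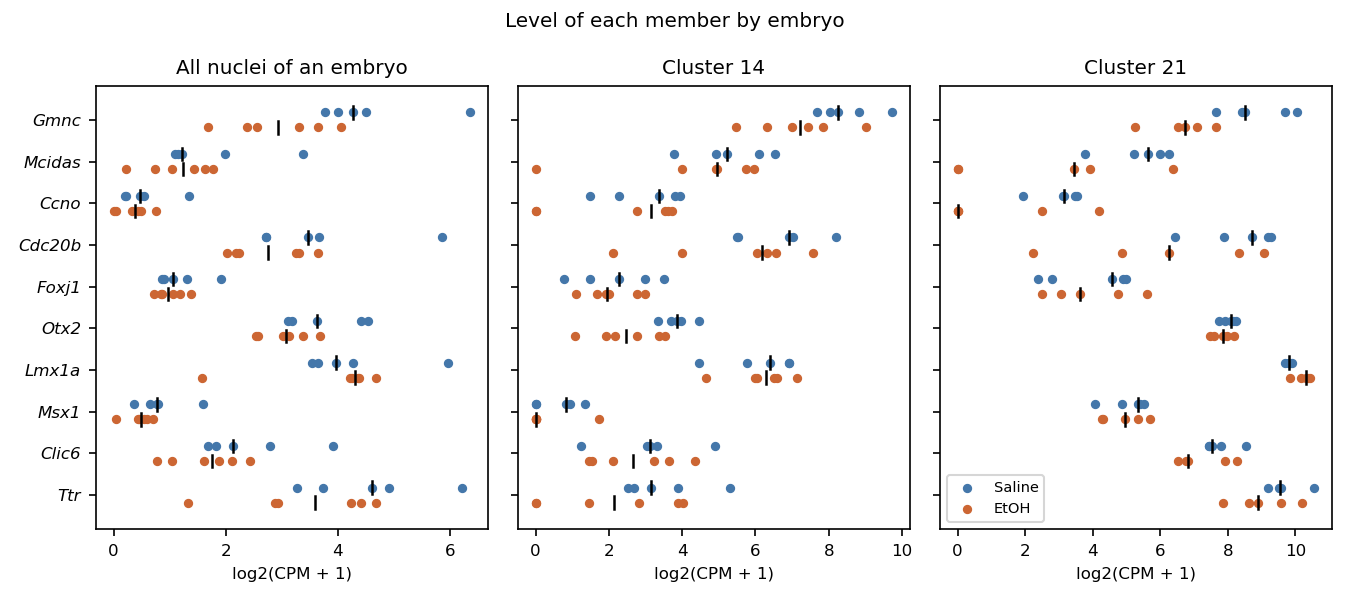
Level of each gene by embryo as log2(CPM + 1), over all nuclei of an embryo (left) and in Clusters 14 (middle) and 21 (right), blue points for saline and orange points for EtOH embryos with at least 10 nuclei, black bars for the group medians. In Cluster 21 the 5 EtOH points of Gmnc lie at or below the lowest saline point and 4 of 5 of Lmx1a above the highest, and the highest saline point of most genes over all nuclei is S2-2.

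**Figure D4:**
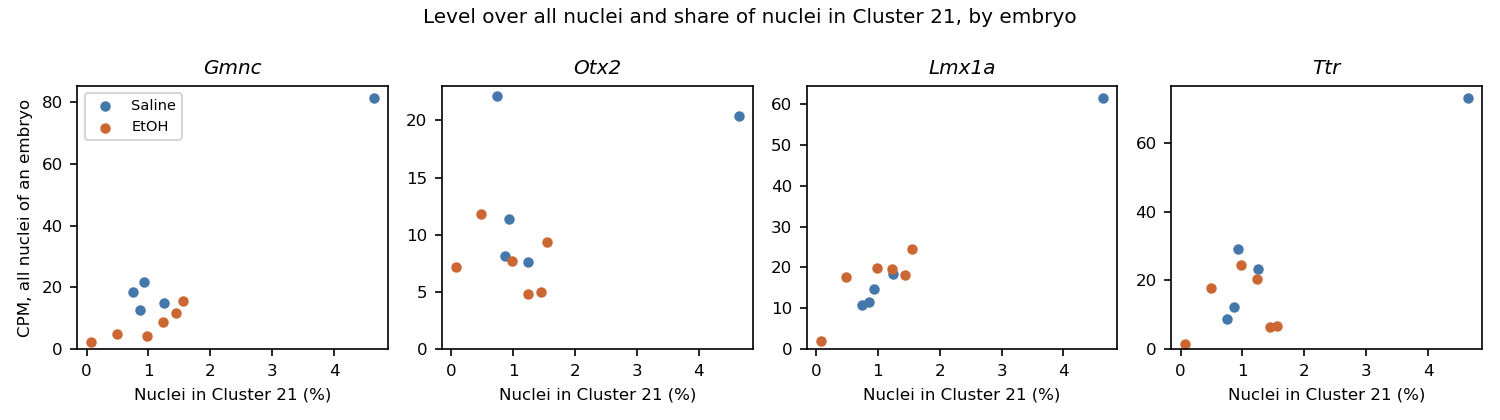
Level of Gmnc, Otx2, Lmx1a and Ttr over all nuclei of an embryo (CPM, linear axes) against the percent of its nuclei in Cluster 21, blue for 5 saline and orange for 6 EtOH embryos. S2-2 lies apart at 4.64% of nuclei with the highest Gmnc, Lmx1a and Ttr, while Otx2 was higher in S2-1 (22.1 CPM) than in S2-2 (20.4 CPM).

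Outside Clusters 3, 14, 20 and 21, S2-2 was the highest embryo for 8 of the 10 genes, while *Otx2* was highest in S2-1 (7.36 CPM) and *Lmx1a* in E2-2 (9.58 CPM, with 6.58 CPM in S2-2). There *Ttr* was at 36.2 CPM in S2-2 and between 0.711 (E1-1) and 16.1 CPM (E2-4) in the other 10 embryos, and *Gmnc* was at 10.5 CPM in S2-2 and at 0.535 (E2-1) to 2.42 CPM (S2-1) in the others. Over the 11 embryos, which are littermates within each dam, these levels and the percent of nuclei in Cluster 21 had a Pearson's r of 0.76 for *Ttr* and 0.92 for *Gmnc*, which fell to -0.13 and 0.18 without S2-2 and so rest on that embryo.

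Within single clusters, 34 pairs of a gene and a cluster passed the filter on low counts, and 33 were lower in EtOH, with a median log2 fold change of -0.65. The share of all pairs that were lower was not counted. The 34 pairs come from the same embryos and repeat genes, so they are not independent. None was called, beside 0.792% of all 217253 gene and cluster pairs tested with edgeR. An unadjusted p under 0.05 (edgeR) was found for 4 of the 34, and for 37725 of all 217253 pairs. With other tools, DESeq2 called 2 (*Gmnc* and *Lmx1a* in Cluster 21), beside 2.60% of all pairs, and limma voom with a random dam effect called 1 (*Otx2* in Cluster 14), beside 2.24%. *Ttr* made up 15 of the 34 pairs, all lower in EtOH and not called, and all but that of Cluster 21 were in clusters at its background level. *Foxj1* passed the filter in 0 clusters.

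In Cluster 21, 8 of the 10 genes were tested, 7 were lower in EtOH, and 0 were called, where 0.0156% of all 6390 genes were called. The median log2 fold change of the 8 was -0.44, against 0.01 over all genes. *Gmnc* was at 361, 1047, 823, 337 and 199.13 CPM in saline embryos S1-1, S1-2, S2-1, S2-2 and S2-4. It was at 37.4, 135, 90.3, 199.00 and 105 CPM in EtOH embryos E1-1, E1-2, E2-2, E2-3 and E2-4. All EtOH values lay below all saline values, but S2-4 and E2-3 were practically equal, and of all genes tested in Cluster 21, 1.58% had all EtOH embryos below all saline embryos. E2-1, with 3 nuclei, had 14 *Gmnc* UMIs (966 CPM) and would have lain among the saline embryos.

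The log2 fold change of *Gmnc* in Cluster 21 was -2.26 (SE 0.57, n = 5 and 5, edgeR, adjusted p = 0.130). A two-sided exact permutation test gave p = 0.00794 over 252 splits and 0.0167 over the 120 within batches, without adjustment for the other genes. The batch means were 704 CPM in saline and 86.4 CPM in EtOH in batch 1, and 453 and 131 CPM in batch 2. Without S2-4 edgeR called it (adjusted p = 0.0393), where 2.66% of all genes of the cluster were called, and DESeq2 gave an adjusted p of 0.000811, where 1.99% were.

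*Gmnc* was also compared in nuclei with and without *Ttr*, as a description. Pooled over embryos, it was at 682 CPM in 239 saline and 369 CPM in 55 EtOH nuclei with *Ttr*, and at 200 CPM in 215 saline and 16.7 CPM in 118 EtOH nuclei without *Ttr*. By embryo, the groups overlapped in nuclei with *Ttr*, at 275 to 1701 CPM in saline and 138 to 1672 CPM in EtOH, the last being E2-1 with 2 nuclei, and 126 of the 239 saline nuclei came from S2-2. In nuclei without *Ttr* the embryos ranged from 113 to 339 CPM in saline and from 0 to 46.5 CPM in EtOH. This rests on 14 *Gmnc* UMIs in all in EtOH, E2-1 having 1 nucleus. How many of all genes separate in these nuclei was not counted. Pooled saline and EtOH levels there were 7.13 and 2.38 CPM for *Mcidas* (2 of 2 EtOH UMIs in E2-1) and 149 and 145 CPM for *Otx2*. *Lmx1a* was higher in EtOH (903 and 1224 CPM). *Clic6* was at 9.81 and 14.3 CPM, from only 22 and 12 UMIs, 7 of the 12 in E2-2. *Cdc20b* was at 26.3 and 56.0 CPM, but 38 of 47 EtOH UMIs were in the 1 nucleus of E2-1, on which this direction rests. The other EtOH embryos had 0 to 45.9 CPM of *Cdc20b*, against 0 to 135 CPM in saline embryos. Nuclei with 10 or more *Gmnc* UMIs numbered 7, 9, 4, 24 and 6 in the saline embryos and 0, 2, 0, 1, 1 and 0 in the EtOH embryos, or 50 of 454 against 4 of 173 nuclei. The share of nuclei with *Gmnc* after thinning was 20.8% in saline and 10.9% in EtOH over pooled nuclei. By embryo it ranged from 12.1% to 25.5% in saline (median 17.8%) and from 2.33% to 25% in EtOH (median 12.1%, without E2-1), so the embryos overlapped. The EtOH nuclei of Cluster 21 were shallower, with a median of 6082 against 8204.5 UMIs, and the part of depth in the unthinned counts was not tested.

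*Lmx1a* was the one gene higher in EtOH in Cluster 21. It was at 822, 890, 903, 922 and 951 CPM in saline embryos S1-1, S1-2, S2-1, S2-2 and S2-4 and at 1261, 915, 1327, 1146 and 1379 CPM in EtOH embryos E1-1, E1-2, E2-2, E2-3 and E2-4. E1-2 lay within the saline range and the other 4 EtOH embryos above it. The log2 fold change was 0.43 (SE 0.13, edgeR, adjusted p = 0.141), with an exact permutation p of 0.0238 over all splits and 0.0167 within batches. The batch means were 856 and 1088 CPM in batch 1 and 926 and 1284 CPM in batch 2 for saline and EtOH. In the other clusters tested, *Lmx1a* was lower in EtOH, by log2 fold changes of -1.30 in Cluster 2 (SE 0.47, edgeR, unadjusted p = 0.0140, adjusted p = 0.119), -0.42 in Cluster 20 (SE 0.64, 0.890) and -0.11 in Cluster 14 (SE 0.48, 0.956). Hem genes as a list had a median log2 fold change of 0.35 in Cluster 21 over 17 tested, against a median of 0.01 over all genes. Of the 17, 0 were called by edgeR and 7 had an unadjusted p under 0.05, beside 792 of all 6390 genes.

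The other genes of Cluster 21 overlapped between treatments. *Mcidas* had a log2 fold change of -1.19 (SE 0.79), *Cdc20b* -1.004 (SE 0.88), *Ttr* -0.51 (SE 0.42), *Clic6* -0.36 (SE 0.35), *Otx2* -0.18 (SE 0.16) and *Msx1* -0.12 (SE 0.35), with adjusted p (edgeR) from 0.583 to 0.9504. For *Mcidas* and *Cdc20b* the size rested on E2-3, which had 82.2 CPM of *Mcidas*, the other 4 EtOH embryos having 0 to 14.01 CPM, and 541 CPM of *Cdc20b*. Without it the log2 fold changes were -2.92 (edgeR, adjusted p = 0.133) and -1.88 (0.458), while without E1-2 that of *Cdc20b* was -0.67 (0.821). *Ttr* ranged from 576 to 1501 CPM in saline (median 741) and from 231 to 1177 CPM in EtOH embryos (median 474). Nuclei with 10 or more *Ttr* UMIs were 29.3% of Cluster 21 in saline (133 of 454) and 14.5% in EtOH (25 of 173). These counts are unthinned, at median depths of 8204.5 and 6082 UMIs, and S2-2 gave 206 of the 454 saline nuclei. The thinned shares of nuclei with *Ttr*, pooled without E2-1, were 40.7% and 24.8%. By embryo they overlapped, at 31.8% to 46.8% in saline and 12.1% to 32.4% in EtOH. *Otx2* was even, with thinned shares of 35.6% and 35.8%.

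In Cluster 14, 6 genes were tested, all lower in EtOH, and 0 were called, where 0.244% of all 9024 genes were. The median log2 fold change of the 6 was -0.82, against 0.0008 over all genes. *Otx2* was at 11.9, 13.6, 9.09, 21.2 and 14.6 CPM in saline embryos S1-1, S1-2, S2-1, S2-2 and S2-4. It was at 2.79, 10.5, 1.10, 5.77, 3.48 and 9.24 CPM in EtOH embryos E1-1, E1-2, E2-1, E2-2, E2-3 and E2-4. Only S2-1 lay within the EtOH range, and the values rest on 1 to 55 UMIs per embryo. The log2 fold change was -1.35 (SE 0.37, n = 5 and 6, edgeR, adjusted p = 0.118), with an exact permutation p of 0.0152 over 462 splits and 0.0190 within batches. The batch means were 12.8 and 6.65 CPM in batch 1 and 14.9 and 4.90 CPM in batch 2, and limma voom with a random dam effect gave an adjusted p of 0.0491, where 2.32% of all genes of the cluster were called.

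*Gmnc* in Cluster 14 was at 303, 261, 204, 849 and 456 CPM in the saline embryos, in the same order, and at 521, 228, 42.9, 127, 171 and 78.6 CPM in the EtOH embryos. The groups overlapped, E1-1 being above 4 of the 5 saline embryos, and the log2 fold change was -1.21 (SE 0.60, edgeR, adjusted p = 0.406). In batch 1 the EtOH mean was the higher one (375 against 282 CPM) and in batch 2 the lower one (105 against 503 CPM). *Gmnc*-high nuclei, with 10 or more UMIs, were 13.6% of saline (110 of 811) and 5.23% of EtOH nuclei (25 of 478), of which S2-2 held 51, with median depths of 10493 and 8119.5 UMIs.

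The remaining genes of Cluster 14 had log2 fold changes of -0.88 (*Cdc20b*, SE 0.75), -0.75 (*Mcidas*, SE 0.67), -0.59 (*Ccno*, SE 0.72) and -0.11 (*Lmx1a*, SE 0.48), with adjusted p (edgeR) from 0.661 to 0.956. Without S2-2 these were -0.31 for *Cdc20b*, -0.33 for *Mcidas* and -0.22 for *Ccno*, and that of *Gmnc* was -0.78. The sign for *Lmx1a* turned in 5 of 20 alternatives, including leaving out S2-2, S2-4 or E2-1. Whether the effect on *Gmnc* or *Otx2* differed between Clusters 14 and 21 was not tested. These fold changes were added to those of the naming rule after values were seen, as the rule took a gene's own highest cluster.

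**Figure D5:**
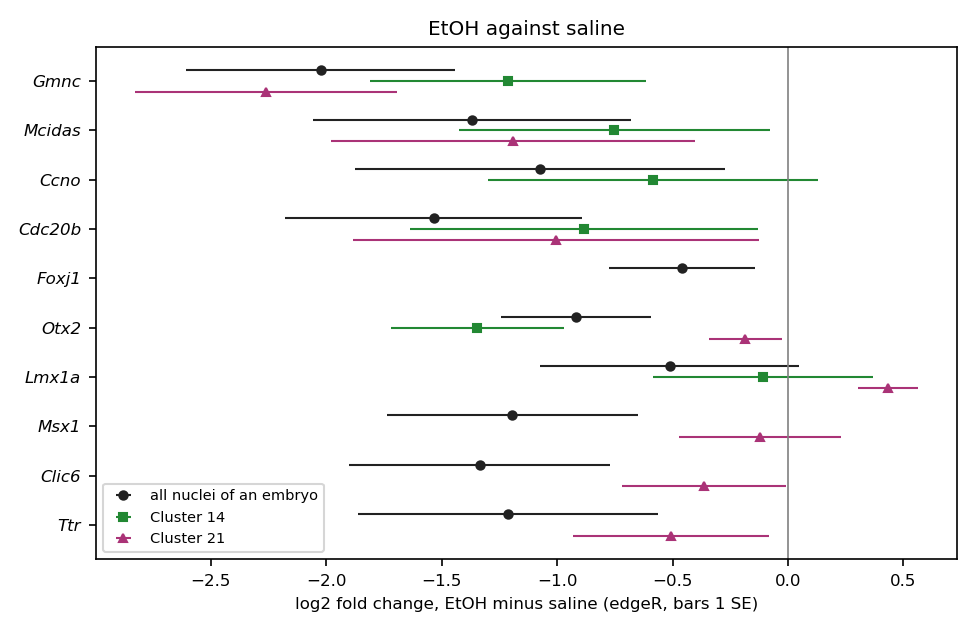
Log2 fold change (EtOH minus saline) of each gene by edgeR, bars 1 SE, over all nuclei of an embryo (black circles), in Cluster 14 (green squares) and in Cluster 21 (purple triangles), where it passed the filter on low counts. All points but Lmx1a in Cluster 21 lie left of 0, and the largest falls are those of Gmnc in Cluster 21 (-2.26) and over all nuclei (-2.02).

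The related lists were compared between EtOH and saline in the same fits, and their counts stand beside the 12.1% of all genes called over all nuclei and the 0.792% of all pairs called in single clusters. Of 18 multiciliation partners tested over all nuclei 4 were called. *Myb*, a factor active in early multiciliation, fell by 0.64 on the log2 scale (SE 0.12, edgeR, adjusted p = 0.0144), *Rfx2* by 0.37 (SE 0.11, 0.0303) and *Rfx3* by 0.35 (SE 0.08, 0.0158), and *Ccdc78* rose by 0.53 (SE 0.16, 0.0340), against a list median of -0.17. *Rfx3* also fell in Cluster 1 (-0.41, SE 0.08) and Cluster 2 (-0.40, SE 0.08). *Myb*, *Rfx2* and *Rfx3* were not confined to Clusters 14 and 21, with means of 22.1, 39.2 and 664 CPM in Cluster 3. Of 18 motile cilia genes 0 were called over all nuclei by edgeR, with a median of -0.17. An unadjusted p under 0.05 was found for 4 of them, beside 6912 of all 18138 genes.

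Of 19 hem genes tested over all nuclei, *Wnt7b*, a Wnt ligand also made by cortical neurons, rose by 0.52 (SE 0.16, edgeR, adjusted p = 0.0386), and of 20 choroid plexus genes *Enpp2* (autotaxin) fell by 0.47 (SE 0.15, 0.0461) and *Slc13a4*, a sulfate transporter, rose by 1.28 (SE 0.40, 0.0433). In single clusters, *Wnt7b* rose in Cluster 1 (0.46, SE 0.12) and *Wnt2b* in Cluster 3 (1.21, SE 0.22), while *Sulf1* fell in Cluster 1 (-1.59, SE 0.30). *Trpm3* fell in Clusters 3 (-0.63, SE 0.13) and 10 (-1.51, SE 0.24), and *Kcnj13* rose in Cluster 1 (1.11, SE 0.27). Of the multiciliation partners, motile cilia, hem and choroid plexus genes 0 were called in Clusters 14 or 21 by edgeR. In Cluster 14, 4 of 12, 0 of 8, 1 of 12 and 2 of 6 tested had an unadjusted p under 0.05. There 1262 of all 9024 genes had one. In Cluster 21 the counts were 2 of 11, 1 of 12, 7 of 17 and 2 of 12, beside 792 of all 6390 genes.

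Of the 14 Cajal-Retzius genes, *Calb2* (calretinin) rose by 0.67 (SE 0.20, edgeR, adjusted p = 0.0355) and *Zic2* fell by 0.89 (SE 0.25, 0.0299) over all nuclei. In Cluster 14 itself 0 of 14 were called by edgeR, with 1 at an unadjusted p under 0.05, beside 1262 of all 9024 genes. Over the 25 clusters 8 of 144 pairs were called, all lower. *Reln* fell in Clusters 9 (-0.85, SE 0.17), 12 (-1.68, SE 0.28) and 17 (-1.09, SE 0.18), *Ebf1* in Clusters 1 (-1.41, SE 0.33), 5 (-1.53, SE 0.28) and 9 (-0.85, SE 0.14), *Cacna2d2* in Cluster 1 (-1.05, SE 0.27) and *Zic2* in Cluster 8 (-1.22, SE 0.31). *Reln* was at 10477 CPM in Cluster 14, at 222 CPM in the median cluster and at up to 2130 CPM in the clusters other than 14, so it was not confined to Cajal-Retzius cells. *Ebf1* had its highest mean in Cluster 11, striatal interneurons (12463 CPM against 969 CPM in Cluster 14), and *Zic2* in Cluster 20. The falls of *Reln* stand beside the high share of Cluster 14 in S2-2 (5.45% of nuclei against 1.82% to 3.36% in the other embryos), whose part in them was not tested.

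Of the markers of cell types removed by the authors, *Kdr*, a VEGF receptor gene of endothelium, reached 63.7 ± 26.9 CPM in Cluster 21, no other cluster having a mean over 9.45 CPM. In Cluster 21 *Cx3cr1* stood at 22.7 ± 12.6 CPM, beside 12.3 CPM in the median cluster, and *Pdgfrb* at 16.7 ± 5.78 CPM, below the 22.7 CPM of Cluster 3. The other 24 genes of these 3 lists ranged there from 0 (*C1qa*, *C1qb*) to 18.1 CPM (*Alas2*, with 18.9 CPM in the median cluster). *Dcn* (11.6 CPM), *Tek* (8.37) and *Col1a2* (4.56) had their highest mean in Cluster 21, while *Ptprc* and *Twist1* were at 0.044, *Cdh5* at 0.833 and *Cldn5* at 1.34 CPM, and the part of such cells in the levels of Cluster 21 was not tested. The mesenchyme and meninges list had 9 of 10 genes tested over all nuclei and 1 called, the collagen gene *Col1a2* (-1.35, SE 0.43, edgeR, adjusted p = 0.0462), with a list median of -0.85. Of 7 endothelial genes *Cdh5* (VE-cadherin) fell by 0.90 (SE 0.26, 0.0326), and of 8 microglia and blood genes *Cx3cr1*, the fractalkine receptor, rose by 0.67 (SE 0.17, 0.0245) and *Alas2*, of heme synthesis in red cells, by 0.59 (SE 0.18, 0.0370). *Cx3cr1* also rose in Cluster 12 (1.48, SE 0.28). In Cluster 21, none of the mesenchyme or microglia and blood genes passed the filter. Of 7 diencephalon and midbrain genes tested over all nuclei 0 were called by edgeR (1 at an unadjusted p under 0.05, beside 6912 of all 18138 genes).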

How the data were processed

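The authors aligned snRNAseq reads to mm10 with Cell Ranger (version and strand setting not given in the sources used here), filtered nuclei and genes, clustered the nuclei, and deposited 275 tables of raw UMI counts, 1 per embryo and cluster. Cluster names are theirs. Doublets were not called, and 314 of 50226 different barcodes occurred in more than 1 embryo. Counts were summed per embryo and cluster, with embryos of under 10 nuclei left out, in Python 3.11.15 (NumPy 2.4.6, SciPy 1.17.1, pandas 2.3.3, matplotlib 3.10.9). Shares called thinned used nuclei thinned to 2000 UMIs, which left out 177 saline and 210 EtOH nuclei, and other shares used unthinned counts.

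EtOH and saline were compared with edgeR 4.0.16 (TMM, filterByExpr, robust glmQLFit, Benjamini-Hochberg over all genes of a fit) in R 4.3.3, tested on simulated data beside DESeq2 1.42.0 and limma 3.58.1. The simulated embryos were independent, without dam or batch effects, so they do not show how the tests behave with littermates. The alternatives were RLE size factors, DESeq2, no filter, a minimum of 20 nuclei, batch, dam sums, a random dam effect, a replicate block, no fold threshold, sums without Cluster 21 or without Clusters 14, 20 and 21, exact permutation and each embryo left out.

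The members and gene lists were chosen with earlier results of these data known. Named were all members, list genes called in a fit or among the 4 highest in Cluster 21, and the 3 genes most like each member, out of genes reaching 5 CPM in some cluster. Gene positions are from GENCODE M21 on GRCm38. Promoters and miRNAs are from RefSeq, with promoters listed for 7 of 10 members. P-values measure the spread between embryos, littermates included.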

Additional observations from a re-analysis of the deposited data

Results flagged for a closer look

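Among the 57 sets of 5 or 6 embryos examined (a gene in 1 treatment, over all nuclei or in Cluster 14 or 21), 12 had an embryo apart from the rest by Dixon's test, where chance gives about 1 in 20. S2-2 accounted for 7 of them. Over all nuclei it stood above the other saline embryos for *Gmnc* (81.4 CPM, next 21.8), *Cdc20b* (57.4, next 11.7), *Lmx1a* (61.5, next 18.3), *Mcidas* (9.47, next 2.95), *Msx1* (2.02, next 0.736) and *Ccno* (1.54, next 0.464). In Cluster 14 it stood above them for *Ttr* (38.5 CPM, next 13.8).

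The saline embryo S1-2 was the highest in Cluster 21 for *Ttr* (1501 CPM, next 767) and *Clic6* (372 CPM, next 220), and in Cluster 14 for *Clic6* (28.7 CPM, next 8.85). Among EtOH embryos, E2-1 was low over all nuclei for *Lmx1a* (1.98 CPM, next 17.5), with 3 nuclei in Cluster 21. E2-3 was high in Cluster 21 for *Mcidas* (82.2 CPM from 19 UMIs, next 14.0).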

How the results depend on the processing

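Over the 25 clusters, 0 members were called (0.792% of all pairs), against 2 with DESeq2 (2.60%) and 1 with a random dam effect (2.24%). Without a filter on low counts 6 were called (*Gmnc* in Clusters 1, 4, 8, 11 and 13, *Otx2* in Cluster 14), beside 2.07% of all 519300 pairs. With an embryo left out 0 to 1 were called (*Gmnc* in Cluster 21 without S2-4, where 2.66% of all genes of that cluster were). Over all nuclei 1 was called, beside 12.1% of all genes, and DESeq2 called 2 (*Gmnc*, *Otx2*), beside 14.9%. Without a filter 0 were called (8.44% of all genes), and 0 with a random dam effect (12.2%). Without Cluster 21, 0 were called, where 1595 of all 18046 genes were called higher and 657 lower. Without Clusters 14, 20 and 21, 2 were called (*Gmnc*, *Clic6*), where 1572 of all 17882 genes were called higher and 626 lower. With an embryo left out 0 to 2 were called. The 2 were *Gmnc* and *Otx2* without S2-4, where 4129 of all 17934 genes were called. Counts summed per dam also called 1, but *Clic6*, beside 1.71% of all genes. With a replicate block 0 members were called over all nuclei and 0 over the clusters. The numbers do not pair the embryos: the deviations of same-numbered embryos correlated at -0.26 to 0.18 over 5 pairs, and 0 of 5 correlated best with their own number.

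The log2 fold change of *Lmx1a* turned in Cluster 14 to 0.10 without S2-2, 0.040 without S2-4 and 0.10 without E2-1 (from -0.35 without S2-1 to 0.10 over the embryos left out) and to 0.060 in both permutation tests, and over all nuclei to 0.20 without S2-2 (down to -0.69 without S2-1). That of *Msx1* in Cluster 21 turned to 0.0030 without S2-4 and 0.027 without E1-2, and was lowest without E2-2 (-0.33). For 25 fold changes, 469 values under alternatives kept direction and side of the threshold, 14 lost and 15 gained the threshold (6 of the 15 through an unadjusted permutation p), and 8 turned. Of the levels and shares under other averages or thinning, 33 moved by less than their spread and 17 by more, all 17 being shares, which rise with depth. The causes were not tested.

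Calls over all genes also depended on the setting. Over the 25 clusters, 1721 became 5651 with DESeq2, 10729 without a filter, 911 with batch as a covariate, 4877 with a random dam effect, 470 with a replicate block, and 89 (without S1-1) to 19059 (without S2-4) with an embryo left out. Over all nuclei, 2193 became 357 with counts summed per dam, 0 with a replicate block, and 409 (without S1-2) to 4129 (without S2-4) with an embryo left out. In Cluster 21, 1 became 127 with DESeq2, 330 without a filter, 18 with batch, 13 per dam and 52 with a random dam effect, and in Cluster 14, 22 became 116, 247, 2, 34 and 209. Depth limits *Ccno*, *Msx1* and *Foxj1* most, with 171, 285 and 537 UMIs in all.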
